A study of Mus musculus with 15 samples.

Results

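The hemibrain transcripts of mice fed a diet enriched in n-3 polyunsaturated fatty acids (ERD, n-3 to n-6 ratio 7 to 1) were compared with those of mice fed a balanced diet (BLD, ratio 1 to 1). Arrays were assigned by the diet label of each sample, which gave 10 of the 15 arrays of the series, 5 for ERD and 5 for BLD. The word CONTROL stands in the title of every sample, whatever its diet. All animals were male C57BL/6j mice that received their diet from 3 weeks of age for 24 weeks, and the design text gives the diets an equal calorie content. The other 5 arrays came from mice on a standard diet (STD, ratio 1 to 6). They entered the model for its estimate of the spread, and for some genes their levels are given beside those of ERD and BLD. On every array hemibrain RNA of 1 animal carried the dye Cy5 and a reference RNA pooled from 11 mouse cell lines carried Cy3. A level is log2 of hemibrain over reference signal. A log2 difference is the mean level in ERD minus that in BLD. Hemibrain is a mixture of cell types, so fewer cells of a type and less RNA per cell cannot be told apart.

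Long-chain polyunsaturated fatty acids are built from dietary precursors by alternating desaturation and elongation, and n-3 and n-6 precursors compete for the same enzymes. Neuronal and synaptic membranes are rich in docosahexaenoic acid, an n-3 fatty acid that the brain takes up from blood. The n-6 fatty acid arachidonic acid is released from phospholipids as the precursor of prostaglandins and of endocannabinoids.

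The arrays differed in brightness and in how closely they resembled one another. Spots well above background in Cy5 numbered 24692 ± 4193 in ERD and 27945 ± 3535 in BLD (SD, n = 5 each), with the fewest on ERD 1 and the most on BLD 4. ERD 1 also had the lowest median correlation with the other arrays. ERD and BLD arrays shared 3 slides, and the later of 2 scan days held 1 ERD and 3 BLD arrays. Neuron markers were well detected, with 19 of 20 listed genes tested and all 19 above background on every array, as were 16 of 20 astrocyte, 21 of 25 oligodendrocyte and 16 of 21 microglia markers. The cell line reference was above background for 85.9% of the values behind the comparison. For genes of brain cells it was often dim: 43% of values for glutamate receptors and 47.7% for potassium channels.

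No gene passed the threshold in ERD against BLD. Of 22557 genes tested, 0 (0%) had a Benjamini-Hochberg adjusted p under 0.05 in limma, and the lowest adjusted p was 0.247. At an unadjusted p under 0.05 there were 2344 genes (10.4%), of which 598 (2.65%) were higher and 1746 (7.74%) lower in ERD. The arrays of the diets did not overlap for 78 genes that were higher (0.347%) and 228 that were lower (1.02%) in ERD, of 22461 measured on all 10 arrays. The median log2 difference over all genes was -0.04, and 58% of genes had a difference below 0.

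The excess of lower values depended on how the 2 dyes were treated. With a smaller normexp offset the split was 886 higher to 1281 lower, in Cy5 alone 1015 to 1316, and with quantile normalization over both channels 1199 to 1063. With the scanner's processed signals it was 892 to 1869, and without background correction 612 to 1509, so there lower values still prevailed. Among the 15374 genes whose reference was above background on all 10 arrays, the median difference was 0 and the split 568 to 1003. Among the other 7183 genes the median was -0.1 and the split 30 to 743. Without ERD 1 the count at an unadjusted p under 0.05 was 1319 (243 higher, 1076 lower), and without BLD 4 it was 1481 (350 higher, 1131 lower), so the number of genes was smaller but lower values still prevailed.

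The widest gap between the diets was that of Gm1987, which encodes a copy of the chemokine CCL21 on chromosome 4. Its level was 0.23, 0.76, 0.29, 0.46 and 0.47 on the ERD arrays and 3.91, 3.34, 2.96, 3.15 and 2.86 on the BLD arrays. Every ERD array was low and every BLD array high, with 2.1 log2 units between the nearest arrays of the diets. The log2 difference was -2.80 ± 0.53 (SE), with a limma adjusted p of 0.247. It ran from -3.81 to -1.38 over the alternatives, and on the ERD arrays Cy5 was above background on 4 of 5 and the reference on 1 of 5, so the size of the difference is uncertain. On the STD arrays the level was 3.81, 3.68, 0.33, 3.24 and 4.33. STD 3 thus lay among the ERD values while the other STD arrays lay among or above the BLD values, and its distance from them widened the spread used in the test.

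Because that spread came from all 3 diets, the call for Gm1987 turned on STD 3. Its adjusted p in limma was 0.000318 in the fit of the 10 ERD and BLD arrays alone, where 1 of 22557 genes (0.00443%) passed and 1715 (7.6%) had an unadjusted p under 0.05. It was 4.76e-05 with the STD arrays other than STD 3, 0.023 with slide as a fixed block and 0.00215 in the 10 arrays without ERD 1, and under every other alternative tried it was above 0.05, up to 0.738. STD 3 was the only array on its slide, so with slide as a fixed block it added nothing to the spread. All settings in which Gm1987 passed thus left STD 3 out of the spread. Arrays on a shared slide differed by -2.69 on slide 1, -3.67 on slide 3 and -2.38 on slide 7. The Cy5 level was 6.12 to 6.72 on the ERD arrays and 9.81 to 11.43 on the BLD arrays. The Cy3 level of the common reference at this spot was 5.89 to 6.12 on the ERD arrays and 6.47 to 7.52 on the BLD arrays, so it was also the lower of the diets in ERD. The reference pool was the same on every array, and what made its level differ here was not tested.

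Other genes of the same stretch of chromosome 4 also had lower levels in ERD and on STD 3 than in BLD. They were looked up after the values of Gm1987 were seen. RefSeq places Fam205a2, Gm3893 and Gm13304 among copies of the Ccl21 and Fam205a genes between Ccl27a and Ccl19. Fam205a2 had levels of 0.27, 0.98, 0.74, 0.94 and 0.63 in ERD and 3.72, 2.44, 2.05, 3.20 and 2.77 in BLD. The predicted gene Gm3893 had 0.13, 0.02, 0.29, 0.20 and 0.43 in ERD and 2.55, 1.58, 0.78, 2.30 and 1.40 in BLD. For both genes all ERD arrays lay below all BLD arrays. Gm13304, a further copy of CCL21, overlapped slightly, with -0.18 to 1.22 in ERD and 1.20 to 2.46 in BLD.

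The log2 differences were -2.12 ± 0.51 for Fam205a2, -1.51 ± 0.39 for Gm3893 and -1.10 ± 0.36 for Gm13304 (SE), with limma adjusted p of 0.269, 0.303 and 0.374. On STD 3 these genes were at 0.74, 0.24 and 0.44, below every BLD array in each case. The 4 genes had 8 probes in the table, of which 6 had all ERD arrays below all BLD arrays, and STD 3 was below all BLD arrays on 8. A dim Fam205a2 probe among them had Cy5 above background on 0 ERD and 2 BLD arrays. On it STD 3 was at 0 and the lowest BLD array at 0.1. The other probes of Fam205a2 and Gm3893 had Cy5 above background on 4 ERD arrays. Fam205a2 and Gm1987 were the only genes of 22461 with a gap over 0.5 log2 units between the nearest arrays of the diets. Genes beside the copies did not share the pattern: the 3 probes of Ccl27a differed by -0.31 to 0.35, Il11ra1 by 0.01 and Dctn3 by 0.18.

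**Figure D1:**
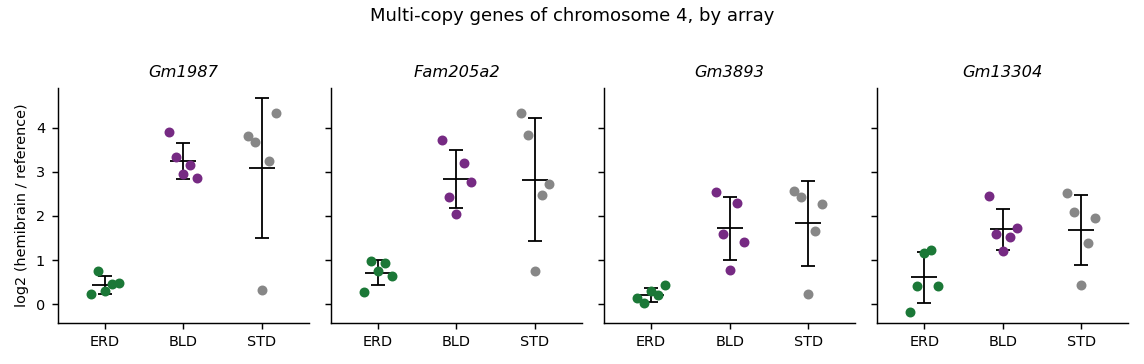
Levels of 4 multi-copy genes of chromosome 4 on each array, as log2 of hemibrain over reference. Points are arrays grouped by diet, and the horizontal bar and whiskers are the mean and SD of 5 arrays. All ERD arrays and STD 3 lie at or below 1.22, whereas all BLD arrays of Gm1987 lie at 2.86 or above.

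Which copies each probe matches could not be checked, because probe sequences were not at hand, so the signal of one copy may stand for another. The RefSeq promoter table (GRCm38.p6) holds 4 Ccl21-type copies of this stretch, and 250 bases upstream of their annotated starts are shown because they show how alike these 4 are. Of the genes described above only Gm13304 is among them. Gm1987 and Gm3893 are not in that table, and Fam205a2 was not compared. Capitals mark the bases at which any of the 4 differ.
Gm13304 (chr4:42114537-42114786, plus strand): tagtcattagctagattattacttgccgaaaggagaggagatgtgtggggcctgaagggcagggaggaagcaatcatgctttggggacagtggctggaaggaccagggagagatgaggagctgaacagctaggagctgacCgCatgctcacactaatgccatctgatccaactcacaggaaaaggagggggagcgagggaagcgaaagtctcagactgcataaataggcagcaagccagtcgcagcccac
Gm10591 (chr4:42611873-42612122, plus strand): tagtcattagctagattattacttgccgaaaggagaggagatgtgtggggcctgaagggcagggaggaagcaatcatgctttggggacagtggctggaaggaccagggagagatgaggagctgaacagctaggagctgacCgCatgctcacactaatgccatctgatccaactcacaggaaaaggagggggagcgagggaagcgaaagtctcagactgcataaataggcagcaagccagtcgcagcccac
Ccl21d (chr4:41903363-41903612, plus strand): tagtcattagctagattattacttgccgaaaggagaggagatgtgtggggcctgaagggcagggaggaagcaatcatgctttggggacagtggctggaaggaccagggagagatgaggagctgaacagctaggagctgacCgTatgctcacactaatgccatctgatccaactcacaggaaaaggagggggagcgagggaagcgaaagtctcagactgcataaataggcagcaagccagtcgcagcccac
Ccl21a (chr4:42773992-42774241, minus strand): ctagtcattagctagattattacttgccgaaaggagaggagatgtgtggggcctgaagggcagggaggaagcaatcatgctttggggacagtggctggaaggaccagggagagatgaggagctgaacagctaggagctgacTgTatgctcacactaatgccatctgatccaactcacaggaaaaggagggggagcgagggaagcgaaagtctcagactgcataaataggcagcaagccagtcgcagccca
Gm10591 differed from Gm13304 at 0 of 250 bases, Ccl21d at 1 of 250 and Ccl21a at 2 of 249 bases after a shift of 1 base. None of the 4 holds the letters TATAAA on either strand, which 12.4% of all 32851 promoters in the table hold in the same 250 bases. Only these exact letters were looked for, so variants of them are not covered.

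Among the 12 named genes of lowest unadjusted p that were lower in ERD, the arrays of the diets were apart for all but Maob, with limma adjusted p of 0.247 throughout. The arrays were apart for 1.02% of all genes in this direction. These genes were picked by p in this same comparison, so their separation is no further support. Coa5, an assembly factor of cytochrome c oxidase, was at -1.04, -1.11, -0.78, -0.93 and -0.84 in ERD and at -0.10, -0.34, -0.40, -0.30 and -0.37 in BLD. The ERD arrays were tightly grouped and all below BLD, with a log2 difference of -0.64 ± 0.11 (SE), while STD ranged from -0.87 to -0.44, below every BLD array and partly within ERD. A second, dimmer Coa5 probe differed by 0.29, in the other direction, and the mean of both probes by -0.17. Vps26b, a subunit of the retromer that returns receptors from endosomes, was at 0.01, -0.18, -0.10, -0.26 and 0.07 in ERD and at 0.54, 0.42, 0.39, 0.55 and 0.72 in BLD. Its difference was -0.62 ± 0.11, and STD (0.26 to 0.79) covered the BLD range.

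Genes of signalling and membrane fusion were in the same group. Map2k1, which encodes the kinase MEK1, was at -1.13, -0.71, -0.38, -0.70 and 0.04 in ERD and at 1.14, 0.34, 0.12, 0.82 and 0.31 in BLD, a difference of -1.12 ± 0.23 (SE). ERD 5 came closest to BLD. Braf, which encodes a kinase that activates MEK1, was named as a member of the MAP kinase list. It had 0.50, 0.78, 0.42, 0.82 and 0.77 in ERD and 1.11, 1.17, 1.04, 1.36 and 1.24 in BLD. There was no overlap, which held for 1.02% of all genes in this direction. The Braf difference was -0.53 ± 0.11 (-0.25 on a second probe), with a limma adjusted p of 0.247. Napg, the gamma-SNAP protein of membrane fusion, was at 0.15 to 1.33 in ERD and 1.54 to 2.42 in BLD, with a difference of -1.07 ± 0.22. Tbc1d9 differed by -1.02 ± 0.21 and Isca1, which takes part in iron-sulfur cluster assembly, by -0.80 ± 0.17, while a second Isca1 probe differed by -0.02.

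After Gm1987, the largest differences of this group were those of Maob and Ldb2, whose reference spots were dim. Maob, the monoamine oxidase that breaks down dopamine and phenylethylamine, was at 0.19, 1.56, 1.51, 1.38 and 2.35 in ERD and at 2.92, 2.20, 3.10, 2.88 and 3.07 in BLD. ERD 1 was far below the rest and ERD 5 overlapped BLD 2. Its difference was -1.43 ± 0.30 (SE), with the reference above background on 2 of 10 arrays. Ldb2, a cofactor of LIM-domain transcription factors, was at 1.54 to 3.22 in ERD and 3.52 to 4.27 in BLD, a difference of -1.38 ± 0.25 (-0.40 with processed signals) with the reference above background on 4 arrays. Spock1, a brain proteoglycan, differed by -1.17 ± 0.22 and Lrrc55, an auxiliary subunit of BK potassium channels, by -1.02 ± 0.19. Their reference spots were above background on 1 and 0 arrays.

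Differences in the other direction were smaller, from 0.36 to 0.83 among the 12 named genes that were higher in ERD. None of these 12 overlapped between the diets, which held for 0.347% of all genes in this direction. Their choice by p in this same comparison favours such separation, so it is no further support. The limma adjusted p ranged from 0.247 to 0.332. The mitochondrial topoisomerase gene Top1mt was at 0.05, -0.21, -0.34, -0.20 and -0.03 in ERD and at -0.65, -0.59, -0.57, -0.64 and -0.58 in BLD. The BLD arrays spanned under 0.1 log2 units and all lay below ERD, a difference of 0.46 ± 0.10 (SE). Psmc5, an ATPase subunit of the proteasome cap, was at 2.17, 2.08, 1.87, 2.08 and 2.19 in ERD and at 1.49, 1.63, 1.66, 1.72 and 1.47 in BLD, a difference of 0.49 ± 0.11. STD (1.27 to 1.70) was within or below the BLD range.

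Genes of RNA handling, cholesterol synthesis and immunity were among the rest. Puf60, a splicing factor that helps to recognise 3′ splice sites, was at 1.28, 1.09, 0.51, 1.05 and 1.03 in ERD and at 0.14, 0.39, 0.51, 0.42 and 0.42 in BLD. ERD 3 lay next to the highest BLD array, and the difference was 0.62 ± 0.14 (SE). Eif4g1, the scaffold of the cap-binding complex, was at 0.61, 0.72, 0.52, 0.98 and 0.73 in ERD and at 0.32, 0.39, 0.40, 0.24 and -0.07 in BLD, a difference of 0.46 ± 0.12. STD lay at or below the lower part of the BLD range, at -0.25 to 0.22 for Puf60 and -0.43 to -0.02 for Eif4g1. Mvk, the mevalonate kinase of sterol synthesis, was at 0.59, 0.09, -0.22, 0.01 and 0.39 in ERD and at -0.50, -0.40, -0.46, -0.33 and -0.63 in BLD, a difference of 0.64 ± 0.17, while a second Mvk probe differed by -0.05. The interferon-inducible gene Ifi27l2a differed by 0.69 ± 0.18 and H2-DMb1, which helps to load peptides on MHC class II, by 0.42 ± 0.12. The rest were Dnajb12, a chaperone of the endoplasmic reticulum (0.58), Zfp703, a transcriptional repressor (0.67), Tnnt1, a slow troponin T (0.83), Arfgap3, a Golgi GTPase activator (0.36), and Sqor, a mitochondrial sulfide oxidase (0.41).

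**Figure D2:**
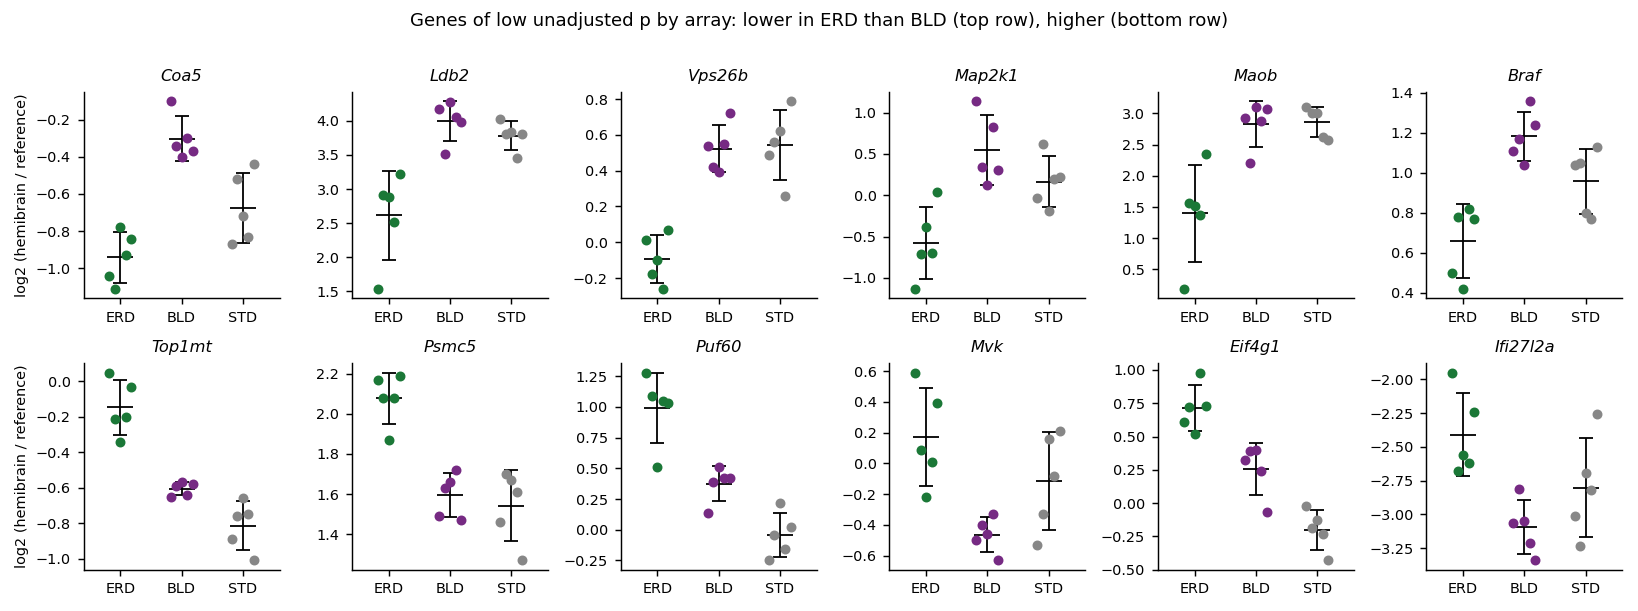
Levels of 12 genes of low unadjusted p on each array, as log2 of hemibrain over reference, with separate vertical scales. Points are arrays, bars and whiskers the mean and SD of 5 arrays per diet. Of the 6 genes in the top row only Maob overlaps between ERD and BLD, and the 6 genes in the bottom row are higher on every ERD array. The genes were picked by their p in this comparison.

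Genes of long-chain fatty acid synthesis were lower in ERD for 15 of 20 measured members, with a median log2 difference of -0.13 against -0.04 for all genes. At an unadjusted p under 0.05 there were 5 lower and 0 higher, against 7.74% and 2.65% of all genes. The list median kept its sign under all 36 alternatives, from -0.21 to -0.05, and within slides it was -0.11, -0.11 and -0.06. The list mean per array, taken as the members' mean distance from their own 15-array means, was -0.25, -0.30, -0.06, -0.19 and 0.00 in ERD and 0.12, 0.07, -0.13, 0.19 and 0.07 in BLD. ERD 3 and ERD 5 lay within the BLD range, and BLD 3 within the ERD range.

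Within this list the front-end desaturase Fads1 stood lowest by p. Its level was -2.09, -2.24, -1.29, -1.41 and -1.40 in ERD and -0.71, -0.81, -1.38, -0.53 and -0.97 in BLD. ERD 1 and ERD 2 were the lowest arrays and ERD 3 overlapped BLD 3, and the difference was -0.81 ± 0.23 (SE; limma adjusted p = 0.332). STD ranged from -1.59 to -0.49. Scd2, the main stearoyl-CoA desaturase of brain, was at 0.65, -0.09, 0.13, -0.06 and 0.45 in ERD and at 0.39, 0.74, 0.67, 0.69 and 0.86 in BLD, a difference of -0.46 ± 0.15 (adjusted p = 0.37). Here ERD 1 was high and overlapped BLD.

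The partner desaturase Fads2 had a difference of -0.04 ± 0.10 (SE; limma adjusted p = 0.93), but its probe was above background on 1 ERD and 2 BLD arrays, and the sign turned in Cy5 alone (0.09) and without ERD 2 (0.01). The elongase Elovl5 differed by -0.24 ± 0.11 (adjusted p = 0.476), from -0.36 to 0.04 in ERD and -0.03 to 0.14 in BLD. Elovl2, which elongates the longest precursors of docosahexaenoic acid, differed by -0.48 ± 0.30 (adjusted p = 0.584), with its reference above background on 0 of 10 arrays, and by 0.00 with processed signals. Elovl4 (-0.89) and Scd1 (-0.85) were named after their values were seen, as the remaining members at an unadjusted p under 0.05.

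Mfsd2a, the transporter that carries docosahexaenoic acid across the blood-brain barrier, was in the opposite direction. Its level was 3.07, 3.26, 2.11, 2.61 and 2.79 in ERD and 2.05, 1.91, 2.53, 2.05 and 2.73 in BLD. ERD 3 was low and BLD 5 high, so the diets overlapped, and the difference was 0.51 ± 0.21 (SE; limma adjusted p = 0.445). Of 19 genes of fatty acid uptake, binding and activation, 6 were higher and 13 lower in ERD (median -0.06, above 0 in 9 of 36 alternatives). Apoe, the main lipid carrier of brain, differed by 0.48 ± 0.23, or 0.27 without ERD 1.

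**Figure D3:**
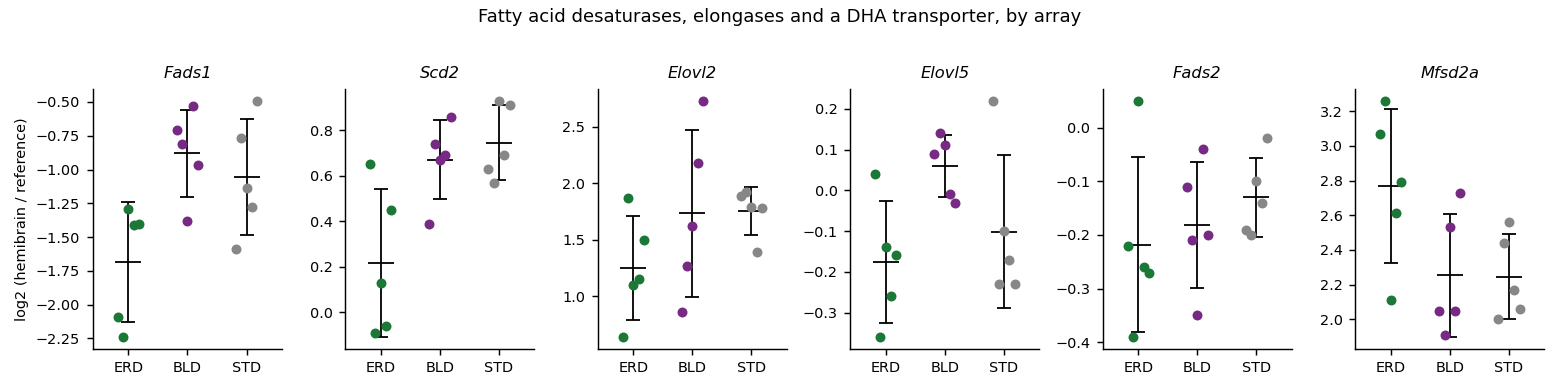
Levels of 5 fatty acid desaturases and elongases and of the transporter Mfsd2a on each array, as log2 of hemibrain over reference, with separate vertical scales. Points are arrays, bars and whiskers the mean and SD of 5 arrays per diet. In each of the 6 panels ERD and BLD arrays overlap.

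The other lipid lists had medians between -0.25 and 0.06. Of 16 endocannabinoid genes 13 were lower in ERD, 6 of them at an unadjusted p under 0.05 (7.74% of all genes), with a median of -0.25 that turned to 0.05 with a smaller normexp offset and 0.04 with the scanner's processed signals. Faah, which degrades anandamide, was at 0.09 to 0.62 in ERD and 0.55 to 0.95 in BLD, a difference of -0.46 ± 0.14 (SE; limma adjusted p = 0.345). Napepld, which releases anandamide from its phospholipid precursor, differed by -0.59 ± 0.19. Phospholipid remodelling genes were split evenly, 11 higher and 11 lower, and their lowest by p, the lysocardiolipin acyltransferase gene Lclat1, was at -0.99 to -0.50 in ERD and -0.46 to -0.06 in BLD (difference -0.46 ± 0.12, adjusted p = 0.303). Cholesterol genes had a median of 0 with Mvk (0.64) and the squalene synthase gene Fdft1 (-0.65 ± 0.18) in opposite directions. Prostaglandin and lipoxygenase enzymes had a median of 0.02, and prostacyclin synthase, Ptgis, differed by 0.47 ± 0.17. Fatty acid oxidation genes had a median of 0.06, with the lipid droplet gene Plin4 at 0.86 to 1.37 in ERD and 0.42 to 0.70 in BLD (0.57 ± 0.19, adjusted p = 0.388). Among PPAR, RXR and LXR receptors and cofactors the corepressor gene Ncor1 differed by -0.57 ± 0.19 (-0.21 as the mean of its 3 probes) in a list with a median of -0.01.

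The lists of GABA receptors, postsynaptic scaffolds and potassium channels had the lowest medians, and their reference spots were often dim. Of 27 genes of GABA receptors and interneurons 23 were lower in ERD, 9 of them at an unadjusted p under 0.05 (7.74% of all genes), with a median log2 difference of -0.35. The reference was above background for 50.4% of their values, and the median was -0.05 with the smaller offset, 0.07 with processed signals and -0.33 in Cy5 alone. Their list mean per array was -0.90, 0.19, -0.41, -0.16 and -0.07 in ERD and 0.30, 0.23, 0.08, 0.47 and -0.04 in BLD. ERD 1 was far below all others and ERD 2 lay within BLD. Gabra4, a GABA-A receptor subunit, was at 0.49 to 2.02 in ERD and 1.90 to 3.40 in BLD, a difference of -1.21 ± 0.30 (SE; limma adjusted p = 0.289), with its reference above background on 0 arrays.

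Potassium channel genes were lower in ERD for 32 of 35 members, 14 of them at an unadjusted p under 0.05 against 7.74% of all genes. Their median was -0.31, and -0.02 with processed signals. Kcnd2, which carries the A-type current of dendrites, was at 3.38, 5.26, 3.34, 3.14 and 4.22 in ERD and at 5.72, 4.60, 5.76, 5.23 and 4.75 in BLD. ERD 2 lay inside the BLD range and the difference was -1.34 ± 0.38 (SE; limma adjusted p = 0.332). It was -0.03 with processed signals, and the reference was above background on 0 of 10 arrays. Its partner Kcnip1 was at 0.06 to 0.65 in ERD and 0.65 to 1.35 in BLD (-0.61 ± 0.16). The AMPA, kainate and NMDA receptor list had 17 of 20 members lower and a median of -0.23 that turned to 0.16 with processed signals. Gria2, the AMPA receptor subunit that blocks calcium entry, was at 0.17, 0.75, 1.73, 1.42 and 2.70 in ERD and at 2.87, 2.78, 1.97, 3.79 and 3.70 in BLD, a difference of -1.67 ± 0.42 (-0.50 on a second probe), with its reference above background on 0 arrays.

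The remaining synaptic lists also had medians below 0. Their share of lower members ran from 60.6% for synaptic vesicle genes to 78.3% for postsynaptic scaffolds and adhesion, against 58% of all genes. Postsynaptic scaffolds and adhesion genes had 18 of 23 lower and a median of -0.32 that was 0.03 with the smaller offset, with Nlgn1 at -0.98 ± 0.30 (SE) and Lrrtm4 at -0.37 ± 0.11 (-0.03 on a second probe). For Nlgn1 and Lrrtm4 the reference was above background on 0 arrays. Synaptic vesicle genes had 20 of 33 lower (median -0.17, 0.08 with processed signals). Syt4, a synaptotagmin of secretory vesicles, was at 0.16, 0.85, 1.34, 1.30 and 2.62 in ERD and at 3.62, 2.69, 1.29, 3.74 and 2.49 in BLD. BLD 3 and BLD 5 lay within the ERD range, and the difference was -1.51 ± 0.48 (limma adjusted p = 0.357), with the reference above background on 1 array. Calcium and sodium channels had a median of -0.17 with Scn3a at -1.18 ± 0.30, metabotropic glutamate receptors and Homer proteins -0.18 with Homer2 at -0.85 ± 0.26, and monoamine and acetylcholine genes -0.14 with the serotonin receptor gene Htr2c at -1.21 ± 0.36. Htr2c, with its reference above background on 0 arrays, differed by -0.21 with processed signals and by 0.01 on a second probe. All 3 medians turned positive with processed signals, to 0.10, 0.06 and 0.16. Neurotrophins and their receptors had a median of -0.18 (0.13 with processed signals), and Bdnf itself was at -0.41, -0.70, -0.45, -0.57 and -0.42 in ERD and at 0.11, -0.21, -0.29, -0.42 and -0.18 in BLD. Only BLD 4 reached the ERD range, and the difference was -0.31 ± 0.12 (adjusted p = 0.425).

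Neuron markers themselves had a median of -0.07, with 12 of 19 lower, which was 0.24 with processed signals. Their list mean was -0.46, 0.06, -0.13, -0.06 and -0.16 in ERD and 0.25, 0.21, -0.10, 0.13 and -0.24 in BLD, so the diets overlapped and ERD 1 was again the lowest array. Map2, a dendritic microtubule protein, was at 0.48, 3.24, 4.86, 4.27 and 5.25 in ERD and at 6.43, 5.02, 4.98, 6.08 and 5.51 in BLD (difference -1.98 ± 0.67 SE; limma adjusted p = 0.388). ERD 1 lay far below the other arrays, and without it the difference was -1.20. A second Map2 probe differed by -0.17. The part of these markers and of array brightness in the synaptic lists was not tested beyond the alternatives given.

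**Figure D4:**
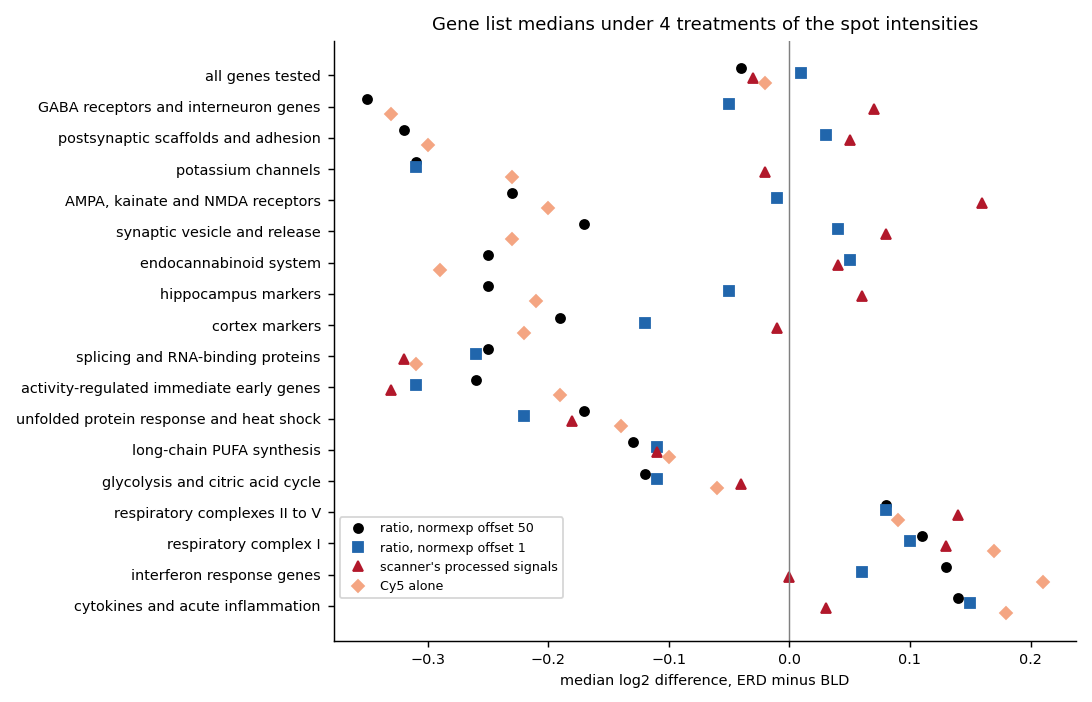
Median log2 difference (ERD minus BLD) of 17 gene lists and of all genes tested, under 4 treatments of the spot intensities. Each symbol is 1 median. Synaptic and regional lists lie below 0 with an offset of 50 and in Cy5 alone but near or above 0 with processed signals, whereas splicing, immediate early and PUFA synthesis lists lie below 0 and respiratory lists above 0 in all 4.

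Activity-regulated immediate early genes were lower in ERD for 18 of 26 members, with a median of -0.26 that kept its sign in all 36 alternatives (-0.33 to -0.19). The reference was above background for 95% of their values. Their list mean was -0.06, -0.24, -0.14, -0.21 and -0.09 in ERD and 0.20, 0.09, -0.09, 0.11 and -0.03 in BLD. BLD 3 lay within the ERD range, and within slides the medians were -0.25, -0.20 and -0.09. Nptx2, a secreted organiser of excitatory synapses, was at 0.29, 1.32, 1.39, 1.32 and 0.92 in ERD and at 1.53, 1.43, 1.70, 1.90 and 1.79 in BLD, a difference of -0.62 ± 0.20 (SE; limma adjusted p = 0.37), and of -0.09 on a second probe. Egr4, an activity-induced transcription factor, differed by -1.15 ± 0.26 (adjusted p = 0.247) but by 0.06 with processed signals, and its reference was above background on 3 of 10 arrays.

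Splicing and RNA-binding proteins formed the broadest group of well measured genes with a low median. Of 54 measured members 44 were lower in ERD, 17 of them at an unadjusted p under 0.05 (against 7.74% of all genes) and 1 higher, with a median of -0.25 and a range of -0.33 to -0.17 over 36 alternatives. The reference was above background for 99.4% of values. The list mean per array was -0.58, -0.51, 0.13, -0.06 and 0.06 in ERD and 0.20, 0.20, -0.10, 0.29 and 0.23 in BLD. ERD 1 and ERD 2 were low and the other ERD arrays lay within the BLD range. Hnrnpa2b1, an RNA-transport protein of the hnRNP family, was at -1.83, -1.68, -1.61, -1.78 and -1.49 in ERD and at -0.61, -1.25, -1.14, -1.04 and -1.12 in BLD. Every ERD array was below every BLD array, which held for 1.02% of all genes in this direction. The Hnrnpa2b1 difference was -0.64 ± 0.15 (SE; limma adjusted p = 0.254), and STD (-1.98 to -1.22) reached lower than ERD. Of the 10 members that were higher in ERD, only Puf60, described above, had an unadjusted p under 0.05. Raly, another hnRNP-family member, differed by -0.20 ± 0.22, from 0.18 to 0.91 in ERD and 0.62 to 0.93 in BLD, and by 0.01 in Cy5 alone. Its STD arrays lay below both diets, at -1.84 to -0.46, and their spread entered the SE, which was 0.14 in the 10 ERD and BLD arrays alone.

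**Figure D5:**
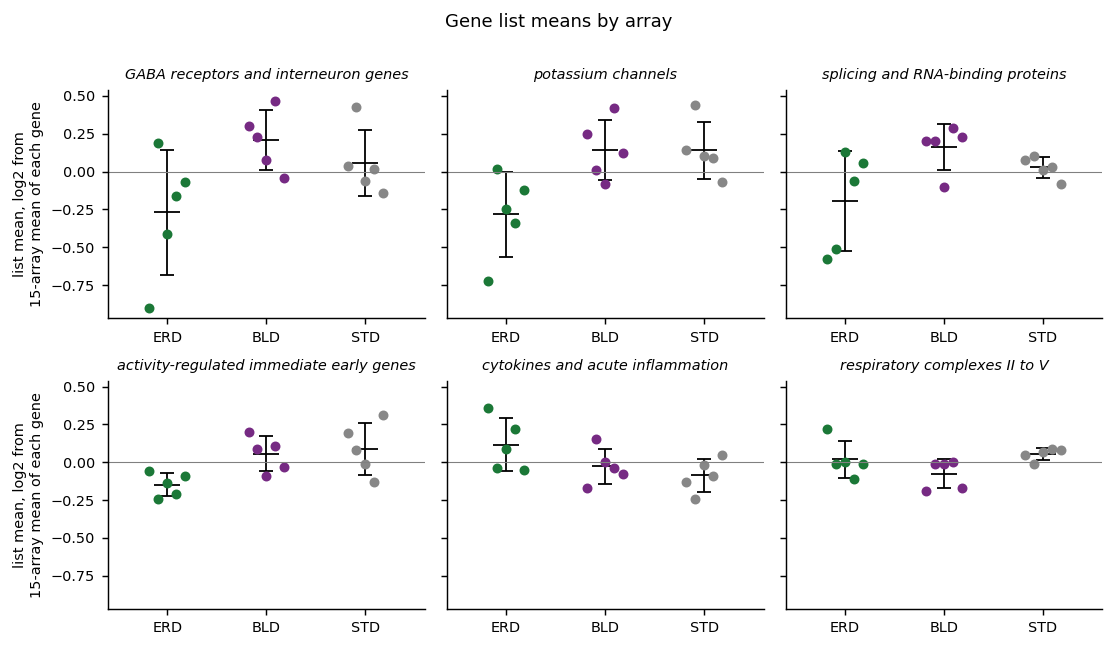
Mean of 6 gene lists on each array, as the members' mean log2 distance from their own 15-array means. Points are arrays, bars and whiskers the mean and SD of 5 arrays per diet. ERD 1 is lowest for GABA and potassium channel genes, and ERD 1 and ERD 2 for splicing genes. ERD 1 is highest for cytokine genes and for respiratory complexes II to V.

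ERD 1 and ERD 2 also stood apart for single genes of energy and redox metabolism. Ndufa4, a respiratory chain subunit, was at -3.23 and -3.23 on these arrays, at 1.26, -0.01 and 0.75 on the other ERD arrays and at 0.17 to 1.31 in BLD. Its difference of -1.80 ± 0.72 (SE; limma adjusted p = 0.441) was -4.54 on slide 3, which held ERD 1, but -0.52 and -0.28 on slides 1 and 7. Gsr, the glutathione reductase gene, was at -2.61 and -3.03 on ERD 1 and ERD 2 and at -1.39 to -0.94 on the others, against -1.19 to -0.72 in BLD. A second Gsr probe differed by -0.24. For both genes the other ERD arrays overlapped with BLD.

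Medians of the respiratory lists were slightly above 0, and smaller without ERD 1. Of 37 complex I genes 22 were higher in ERD (median 0.11, range 0.02 to 0.17 over 36 alternatives), and of 40 genes of complexes II to V 27 were higher (median 0.08, 0.03 to 0.26). Within slides the medians for complexes II to V were -0.13, 0.34 and 0.10, so slide 1 went the other way. Ndufa9 of complex I was at 0.54 to 1.23 in ERD and 0.17 to 0.77 in BLD (0.41 ± 0.15 SE; limma adjusted p = 0.426), and the ATP synthase subunit gene Atp5k at 1.55 to 2.05 and 1.42 to 1.66 (0.33 ± 0.12, adjusted p = 0.425). Glycolysis and citric acid cycle genes had 22 of 35 lower and a median of -0.12. Pdha1, a subunit of pyruvate dehydrogenase, differed by -0.87 ± 0.25, with ERD at -1.35 to -0.32 and BLD at -0.61 to 0.54.

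Cytokine and acute inflammation genes were higher in ERD for 20 of 23 members, 4 of them at an unadjusted p under 0.05 against 2.65% of all genes. Their median of 0.14 kept its sign in all 36 alternatives (0.03 to 0.25). The list mean was 0.36, -0.04, 0.09, 0.22 and -0.05 in ERD and -0.17, 0.15, 0.00, -0.04 and -0.08 in BLD, so ERD 1 was highest and the diets overlapped. Nfkbia, the inhibitor of NF-kappa-B, was at 0.21, -0.62, -1.06, -0.79 and -1.45 in ERD and at -1.44, -1.11, -1.25, -1.56 and -1.30 in BLD (0.59 ± 0.26 SE; limma adjusted p = 0.461), or 0.35 without ERD 1. Tnfaip3, a brake on the same pathway, differed by 0.39 ± 0.16 and by -0.07 with processed signals. Interferon response genes had 17 of 25 higher and a median of 0.13 that was 0 with processed signals, with the antiviral gene Oas1a at 0.41 ± 0.15 and Ifih1 at 0.32 ± 0.14. MHC antigen presentation genes had a median of -0.04 (0.04 in Cy5 alone).

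Among glial and vascular markers the list medians lay between -0.19 and -0.04. Astrocyte markers had 14 of 20 lower (median -0.15, 0.18 with processed signals) and microglia markers 12 of 20 (median -0.19, 0.04 with processed signals). Myelin and oligodendrocyte genes had 14 of 24 lower and a median of -0.05 (0.25 with processed signals). Their members differed in sign, with the tight junction gene Cldn11 at -1.24 ± 0.39 (SE), which was 3.07 on ERD 1 and 4.88 or above on every other array, and Ermn at 0.87. Cldn11 differed by 0.00 with processed signals and -0.81 without ERD 1, with its reference above background on 2 of 10 arrays. Endothelial and mural cell markers had a median of -0.11 (0.10 with processed signals) with the cadherin gene Cdh5 at -0.75 ± 0.24. The reference for Cdh5 was above background on 0 of 10 arrays. Choroid plexus and ependyma markers had 8 higher and 9 lower (median -0.07, 0.33 with processed signals), and meninges and fibroblast markers a median of -0.04 (0.03 with processed signals).

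Blood cell markers had 8 of 9 measured members lower. Hbb-b1, a haemoglobin chain, was at 0.28, 0.53, 1.16, 0.82 and 0.47 in ERD and at 2.73, 1.37, 2.88, 1.90 and 0.51 in BLD, a difference of -1.23 ± 0.36 (SE; limma adjusted p = 0.332). BLD 1 and BLD 3 were highest and BLD 5 lay within ERD. The reference for Hbb-b1 was above background on 0 of 10 arrays. Within slides 1, 3 and 7 its difference was -1.30, -2.45 and -0.04. The list mean per array was -0.20 to -0.04 in ERD and -0.31 to 0.49 in BLD. Haemoglobin genes are near-identical copies, so their probes cannot be told apart with certainty.

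Region markers had medians between -0.25 and 0.02. Hippocampus markers had 14 of 16 lower (median -0.25, 0.06 with processed signals) and cortex markers 15 of 18 (median -0.19, -0.01 with processed signals). Their list means were -0.62, 0.20, -0.36, -0.33 and -0.04 for hippocampus and -0.47, 0.07, -0.23, -0.23 and -0.09 for cortex in ERD. In BLD they spanned -0.12 to 0.24 and -0.09 to 0.33. ERD 1 was lowest for both, and ERD 2 and ERD 5 lay within the BLD range. Striatum, olfactory bulb and hypothalamus lists had medians of -0.08, -0.11 and -0.08, and 0.18, 0.28 and 0.29 with processed signals. Thalamus markers had a median of 0.02 (0.09 with processed signals) and cerebellum markers -0.17 (0.19 with processed signals).

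Zic2, a transcription factor kept in the cerebellum list, had a pattern of its own. It was at 0.35, 0.33, 0.42, 0.32 and 0.29 in ERD, at 1.43, 0.81, 0.45, 1.71 and 1.67 in BLD and at -0.01 to 0.28 in STD. The BLD arrays were all above those of ERD, which held for 1.02% of all genes, and above those of STD. BLD 3 was close to both other diets. The difference was -0.87 ± 0.20 (SE; limma adjusted p = 0.247), and in the fit of the arrays of the earlier scan day alone it was -1.20 with an adjusted p of 0.0369. In Cy5 alone it was -0.34 (adjusted p = 0.562), and the Cy3 signal of the reference differed by 0.53, in the other direction. Its reference was above background on 2 of 10 arrays.

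Most epigenome and growth-signalling lists had medians near that of all genes, with a few members apart. Dnmt3a, a de novo DNA methyltransferase, was at -0.36, 0.12, 0.81, 0.71 and 0.84 in ERD and at 1.32, 1.19, 1.05, 1.03 and 1.33 in BLD. The diets did not overlap, with a difference of -0.76 ± 0.21 (SE; limma adjusted p = 0.319), in a list of 23 with a median of -0.03 and 5 lower at an unadjusted p under 0.05 (7.74% of all genes). Smarca2, a chromatin remodelling ATPase, was at 1.20, 1.17, 1.62, 1.22 and 1.55 in ERD and at 2.37, 1.81, 2.50, 1.87 and 1.89 in BLD. That is a difference of -0.74 ± 0.15 (adjusted p = 0.247), again with no overlap, in a list of 55 histone modifiers with a median of -0.07. A lack of overlap in this direction held for 1.02% of all genes. Dnmt3a and Smarca2 were named as members of lowest p in their lists, which favours such separation. The chromodomain helicase gene Chd8 differed by 0.54 ± 0.16. Imprinted genes had 22 of 31 lower and a median of -0.21 (0.07 with processed signals), with Ndn at -0.83 ± 0.20 and Plagl1 at -0.96 ± 0.21 (-0.51 as the mean of its 4 probes). One-carbon metabolism genes had a median of 0, with the methionine adenosyltransferase subunit gene Mat2b at 0.16 to 1.01 in ERD and 0.89 to 1.25 in BLD (-0.49 ± 0.14).

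In the mTORC1 list, 16 of 25 members were lower (median -0.08). The Rag GTPase gene Rragc was at -1.35, -1.29, -0.74, -1.08 and -0.56 in ERD and at -0.05, -0.51, -0.46, -0.39 and -0.16 in BLD, a difference of -0.69 ± 0.15 (SE; limma adjusted p = 0.247). A second Rragc probe differed by 0.14, and the mean of both by -0.28. Mtor itself was at 0.13 to 0.44 in ERD and 0.49 to 0.81 in BLD (-0.40 ± 0.11, adjusted p = 0.332). For Mtor and the brighter Rragc probe the diets did not overlap, which held for 1.02% of all genes in this direction. The MAP kinase list, which holds Map2k1 and Braf, had 21 of 30 lower and a median of -0.07 (0.05 in Cy5 alone). The cap-binding protein gene Eif4e differed by -0.45 ± 0.11, but by 0.15 on a second probe, in a list of 38 initiation factors with a median of -0.04 (0.02 in Cy5 alone). Unfolded protein response and heat shock genes had 24 of 31 lower and a median of -0.17 (-0.26 to -0.07 over 36 alternatives), with the co-chaperone gene Dnajb9 at -0.66 ± 0.18 and Hsph1 at -0.64 ± 0.24 (-0.14 on a second probe). Glucocorticoid-related genes had a median of -0.04 (0.05 in Cy5 alone), with the receptor gene Nr3c1 at -0.61 ± 0.20 (-0.07 on a second probe) and the cortisone reductase gene Hsd11b1 at -0.60 ± 0.16. Clock genes had 14 of 20 lower (median -0.11), with Nr1d2 at -0.52 ± 0.14.

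Lists of housekeeping complexes had medians near that of all genes (-0.04). Cytosolic ribosomal proteins had 31 higher and 37 lower of 68 (median -0.04, 0.04 with quantile normalization over both channels), mitochondrial ribosomal proteins 31 and 25 of 56 (median 0.02) and proteasome subunits 16 and 22 of 38 (median -0.05, 0.01 in Cy5 alone). At an unadjusted p under 0.05 the proteasome list had 5 higher and 3 lower members, against 2.65% and 7.74% of all genes. Psmd4 of the proteasome differed by 0.63 ± 0.21 (SE) beside Psmc5. Antioxidant and glutathione genes had a median of 0.01, and tubulins, motors and microtubule proteins -0.06 (0.01 with processed signals) with Eml2 at -0.97 ± 0.21. Of the 38 microtubule genes, 2 were higher and 6 lower at an unadjusted p under 0.05. Of the 55 lists, 13 kept the sign of their median in all 36 alternatives, 10 below 0 and 3 above 0.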

How the data were processed

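Hemibrain RNA (Cy5) and a cell line reference RNA (Cy3) were hybridised together on 15 arrays. The deposited files hold spot intensities from the scanner software Feature Extraction. Its version is 11.5.1.1 in the file headers but 10.7 in the submitters' processing notes. The deposited series table holds log10 ratios, equal to the scanner software's background-subtracted and dye-normalized ratios, and was an alternative. Here, log2 ratios of median intensities were computed with limma 3.58.1 (R 4.3.3): normexp with an offset of 50, loess within arrays, control spots at weight 0, outlier spots dropped and spots of a probe averaged. A probe had to be well above background in Cy5 on 5 arrays and to have 8 values, and each symbol kept its brightest probe. ERD was compared with BLD in one limma model of all 15 arrays (12 residual degrees of freedom), with Benjamini-Hochberg adjustment over all genes and a threshold of 0.05. The steps were tested on simulated data.

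Named genes were the 12 of lowest unadjusted p in each direction, the 2 members of lowest p in each list, and Fads1, Fads2, Elovl2, Elovl5, Mfsd2a, Bdnf and Raly in every case. Some genes that this rule names are not reported here. The members and lists were chosen with earlier results of these data known. Each array held RNA of 1 sample, and p-values measure the spread between these samples. Read depth does not apply to arrays, and their number limits the precision. Figures were drawn with Python 3.11.15, pandas 2.3.3 and matplotlib 3.10.9. Alternatives covered background correction, normalization, filters, batches and left-out arrays.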

Additional observations from a re-analysis of the deposited data

Results flagged for a closer look

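Single arrays that lay far from the other 4 of their diet were looked for in 102 groups of gene levels (34 genes) and 165 groups of list means, with Dixon's critical value for 5 values. There were 7 such gene levels and 12 such list means, and chance gives about 1 in 20 groups. Gm1987 was at 0.33 on STD 3, with the nearest STD array at 3.24. Maob was at 2.2 on BLD 2, below the other BLD arrays. Tnnt1 was at 0.93 on ERD 1, above the other ERD arrays. Dnajb12 was at -0.27 on STD 3, Elovl2 at 1.39 on STD 4, Elovl5 at 0.22 on STD 1 and Raly at -0.46 on STD 1, where the other STD arrays were at -1.49 or below.

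Among list means of ERD arrays, cholesterol genes were low on ERD 2 (-0.1), fatty acid uptake genes high on ERD 2 (0.26) and synaptic vesicle genes low on ERD 1 (-0.54). Among BLD arrays, fatty acid oxidation genes (-0.05) and unfolded protein response genes (-0.14) were low on BLD 5, postsynaptic scaffold genes were high on BLD 4 (0.4) and splicing genes low on BLD 3 (-0.1). STD 5 stood apart for fatty acid oxidation (-0.23), glycolysis (-0.29), thalamus (-0.2), cerebellum (-0.27) and mitochondrial ribosomal protein lists (0.09).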

How the results depend on the processing

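ERD was compared with BLD under 38 alternative settings, of which 2 (quantile normalization over both channels, and the 10 ERD and BLD arrays without ERD 1) were chosen after seeing the data. The count of 0 called genes became 1, a lower one, in 5 settings: it was Gm1987 in the 10 ERD and BLD arrays, in those without ERD 1, with slide as a fixed block and without STD 3, and Zic2 on the earlier scan day. The slide block also took STD 3, alone on its slide, out of the spread. At an unadjusted p under 0.05, Cy5 alone gave 1015 higher genes, the reference channel alone 1735 higher and 301 lower, and quantile normalization 1199 higher and 1063 lower. No filter on dim probes gave 4270 genes, 1947 of them higher. Detection on at least 4 arrays of each diet gave 392 higher, array weights 358 and the 10 arrays 383. The earlier scan day gave 1444 (310 higher, 1134 lower), a Cy5 detection covariate 1492 (390 and 1102), and the 10 arrays without ERD 1 gave 1022 (167 and 855). Without ERD 1, BLD 3 and ERD 4 there were 1458, of which 229 were higher. Leaving out each array in turn gave 0 to 1 called genes, 1319 to 2735 at an unadjusted p under 0.05, 243 to 825 higher and 1076 to 2129 lower. The lowest counts came without ERD 1. With the scanner's processed signals, and alike with the series value table, the difference turned to 0.06 for Egr4, 0.54 for Zic1, 0.02 for Mboat7, 0.05 for Alas2, 0.03 for Tbr1, 0.05 for Grm7, 0.02 for Elavl4, 0.00 for Ptgr1, -0.14 for Ifih1, -0.02 for Mrpl1, -0.07 for Tnfaip3 and 0.16 for Pmch. With a normexp offset of 1 it turned to 0.05 for Pmch. It was 0.09 for Fads2 and 0.01 for Raly in Cy5 alone, 0.07 for Rpl39 as the mean of probes and for Fads2 between -0.1 and 0.01 over the arrays left out in turn, the highest without ERD 2. The cause of these changes was not tested. Probes near background limit what the ratios can show, since the reference was dim for many genes of brain cells. No paired analysis was possible because the replicate numbers, given in accession order, do not link arrays across diets. Slides that held both diets entered as a block instead, as given above.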
